A study of Mus musculus with 9 samples.

Results

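The genes described here encode the factors that start and extend protein synthesis, chosen by symbol: all genes named Eif1 to Eif6 or Eef1 and Eef2, with the Eif2ak kinases and without pseudogene symbols. The rule selected 60 of the 12413 gene symbols in the table of counts, and 59 of these passed the filter on low counts that 10413 genes passed. Eef1a2, the elongation factor 1A form of neurons and muscle, had 0 to 4 counts per library and was not tested. Messenger RNA was sequenced in BV-2 cells, an immortalized mouse microglial line, in 3 libraries per group and 9 in all. By the submitters' labels, Control cells received PBS, Medium cells LPS, and BHB cells LPS together with β-hydroxybutyrate. The study's text speaks of LPS-treated cells given PBS or BHB, so Medium cells may have received PBS as well. LPS, from the outer membrane of bacteria, activates microglia, and in the culture methods it is used at 1 μg/mL. β-Hydroxybutyrate is a ketone body, given as R-3-hydroxybutyric acid at 1.5 mM. The exposure time of these libraries was not given in the sources used here. All groups are 1 cell line in culture, and no group received BHB without LPS. The study sequenced these cells in search of a molecular basis for pain relief by a ketogenic diet, and the groups allow comparisons of LPS with Control and of BHB with either.

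Translation starts when the ternary complex of eIF2, GTP and initiator tRNA is loaded on the small ribosomal subunit, with eIF1, eIF1A, eIF3 and eIF5, and scans the mRNA from a cap bound by eIF4F. Stress kinases phosphorylate eIF2 and thereby block its exchange factor eIF2B, while the 4E-binding proteins hold the cap-binding protein eIF4E away from eIF4G until mTOR phosphorylates them. During elongation, eEF1A brings aminoacyl-tRNA to the ribosome and eEF2 moves the ribosome along the mRNA. In macrophages and microglia these steps are known to be points of control of the response to LPS.

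Promoter stretches of 4 members are shown because their transcripts stand for different steps: Eif1, the member that rose most with LPS, Eif2ak2, an interferon-induced kinase, Eif4e, the cap-binding protein, and Eef2, the translocation factor. Eif1, Eif2ak2 and Eef2 shared a direction, higher in Medium than in Control and lower in BHB than in Medium, while Eif4e was higher in both comparisons. Each runs from 100 bases before to 30 bases after a RefSeq start on GRCm38.p6, 5′ to 3′ on the gene's strand, and motif letters are in capitals. The Eif4e start was picked because its window holds an E-box, and it lies inside the annotated gene (138526179 to 138559696).
Eif1, chr11:100319849-100319978, plus strand: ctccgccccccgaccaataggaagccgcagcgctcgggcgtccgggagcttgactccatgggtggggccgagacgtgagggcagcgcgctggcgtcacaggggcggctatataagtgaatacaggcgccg
Eif2ak2, chr17:78882543-78882672, minus strand: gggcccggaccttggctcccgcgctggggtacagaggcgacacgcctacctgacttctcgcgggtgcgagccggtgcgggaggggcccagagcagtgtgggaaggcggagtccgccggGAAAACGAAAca
Eif4e, chr3:138527168-138527297, plus strand: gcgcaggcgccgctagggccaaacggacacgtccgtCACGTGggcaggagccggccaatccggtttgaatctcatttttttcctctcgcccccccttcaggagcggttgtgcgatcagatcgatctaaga
Eef2, chr10:81176531-81176660, plus strand: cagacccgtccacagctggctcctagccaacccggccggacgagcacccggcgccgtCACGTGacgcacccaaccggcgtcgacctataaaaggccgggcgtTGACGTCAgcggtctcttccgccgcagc

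The capitals in Eif2ak2 are the core of an interferon-stimulated response element, those in Eif4e and the first in Eef2 an E-box, and the second in Eef2 a cAMP response element. Windows of 300 bases, from 250 before to 50 after a start, were at hand for 48 of the 60 members and searched on both strands. The E-box CACGTG was found in 12 of these 48 genes (25%, against 12% of the tested genes with a window and 7.15% of all windows), among them Eif4e, Eif4a1, Eif4g1, Eif5a, Eef2 and Eef2k. The ETS core CCGGAAGT was found in 8 (16.7%, against 9.92% and 3.89%), the response element core, a pair of GAAA with 2 bases between, in 3 (6.25%, against 3.57% and 3.44%), and an NF-κB motif in 3 (6.25%, against 6.21% and 4.51%). The cAMP response element TGACGTCA and the ATF element TGATGNAA were found in 1 each, Eef2 and Eef2k (2.08%, against 3.73% of tested genes and 1.79% of all windows for the first, and 2.82% and 3.97% for the second). The E-box and the cAMP response element share the letters ACGT, and no motif holds another whole. Genes can have several windows, and a match describes letters in these windows.

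Totals per library ranged from 23411672 to 32767278 counts. The 10 most abundant genes took 8.82% to 9.03% of counts in Control, 13.2% to 14.9% in Medium and 10.3% to 10.9% in BHB, so the scaling of libraries bears on small changes. With library sizes alone in place of TMM factors, which offset such a difference in composition, the median over all genes of the log2 fold change moved from -0.01 to -0.27 for Medium against Control, from 0.00 to 0.13 for BHB against Medium, and from 0.00 to -0.14 for BHB against Control. Medium replicate 3 stood apart from the other Medium libraries, at a Euclidean distance of 43.1 and 44.2 on log2 CPM against 37.3 between those. All 10 listed microglial and macrophage markers were present, at a summed level of 2840 to 3984 CPM (counts relative to library size, scaled by TMM), while the listed markers of neurons, astrocytes, fibroblasts and endothelium in the table summed to at most 1.20 CPM per type. Microglial markers summed to 3861 to 3984 CPM in Control, 2840 to 3743 in Medium and 3572 to 3764 in BHB. In bulk RNA, fewer cells with a transcript and less of it per cell cannot be told apart. P-values measure the spread between libraries, which the methods describe, for the study as a whole, as independent biological replicates.

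LPS changed most translation factor transcripts in both directions, and few of them by a large factor. Against Control, 24 of the 59 tested members were higher in Medium and 20 lower (74.6%, edgeR's quasi-likelihood test with Benjamini-Hochberg adjustment at 0.05), beside 72.6% of all genes tested, 36.3% higher and 36.3% lower. The median log2 fold change of the members was 0.03, beside -0.01 for all genes, and 4 of the 59 were called with a change of at least 2-fold, where 18.7% of all genes were. With library sizes alone 9 members were higher and 32 lower, beside 21.9% and 51.6% of all genes. Under that scaling 9 of the 24 higher members changed sign, Eef1g, Eif3f, Eif3g, Eif3i, Eif3m, Eif4e2, Eif4ebp1, Eif4g2 and Eif5b, and 6 more lost the call, Eef1akmt3, Eif1b, Eif2ak1, Eif2b1, Eif2b4 and Eif4e. Without Medium replicate 3, 27 members were higher and 20 lower, beside 3921 and 4002 of all genes. The groups did not overlap for 44 members, beside 75.1% of all genes.

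BHB given with LPS changed a similar share of the members. Against Medium, 23 of the 59 were higher and 14 lower (62.7%, beside 66.9% of all genes, 33.2% higher and 33.6% lower), with a median of 0.10 beside 0.00 for all genes. Without Medium replicate 3 these counts were 25 and 19, beside 3689 and 3693 of all genes. Against Control, 21 were higher and 15 lower in BHB (61.0%, beside 66.7%, 33.4% higher and 33.3% lower), with a median of 0.08 beside 0.00, and with library sizes alone 11 and 23 (24.3% and 42.4% of all genes). That scaling ended the calls of Eif6, Eif5b and Eef1akmt1 against Medium and of 10 members against Control: Eef1d, Eif1b, Eif2a, Eif2ak1, Eif2d, Eif2s2, Eif4a2, Eif4g2, Eif5 and Eif6. In each of these comparisons 3 members were called with a change of at least 2-fold, where 12.7% and 13.3% of all genes were, and 39 and 47 members did not overlap, beside 68.0% and 75.3%. The shares of members called were thus near those of all genes in every comparison, and the patterns below are those of single factors. Counts by role group below are to be read beside the same shares of all genes. The comparisons share libraries, and their values are given side by side.

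**Figure D1:**
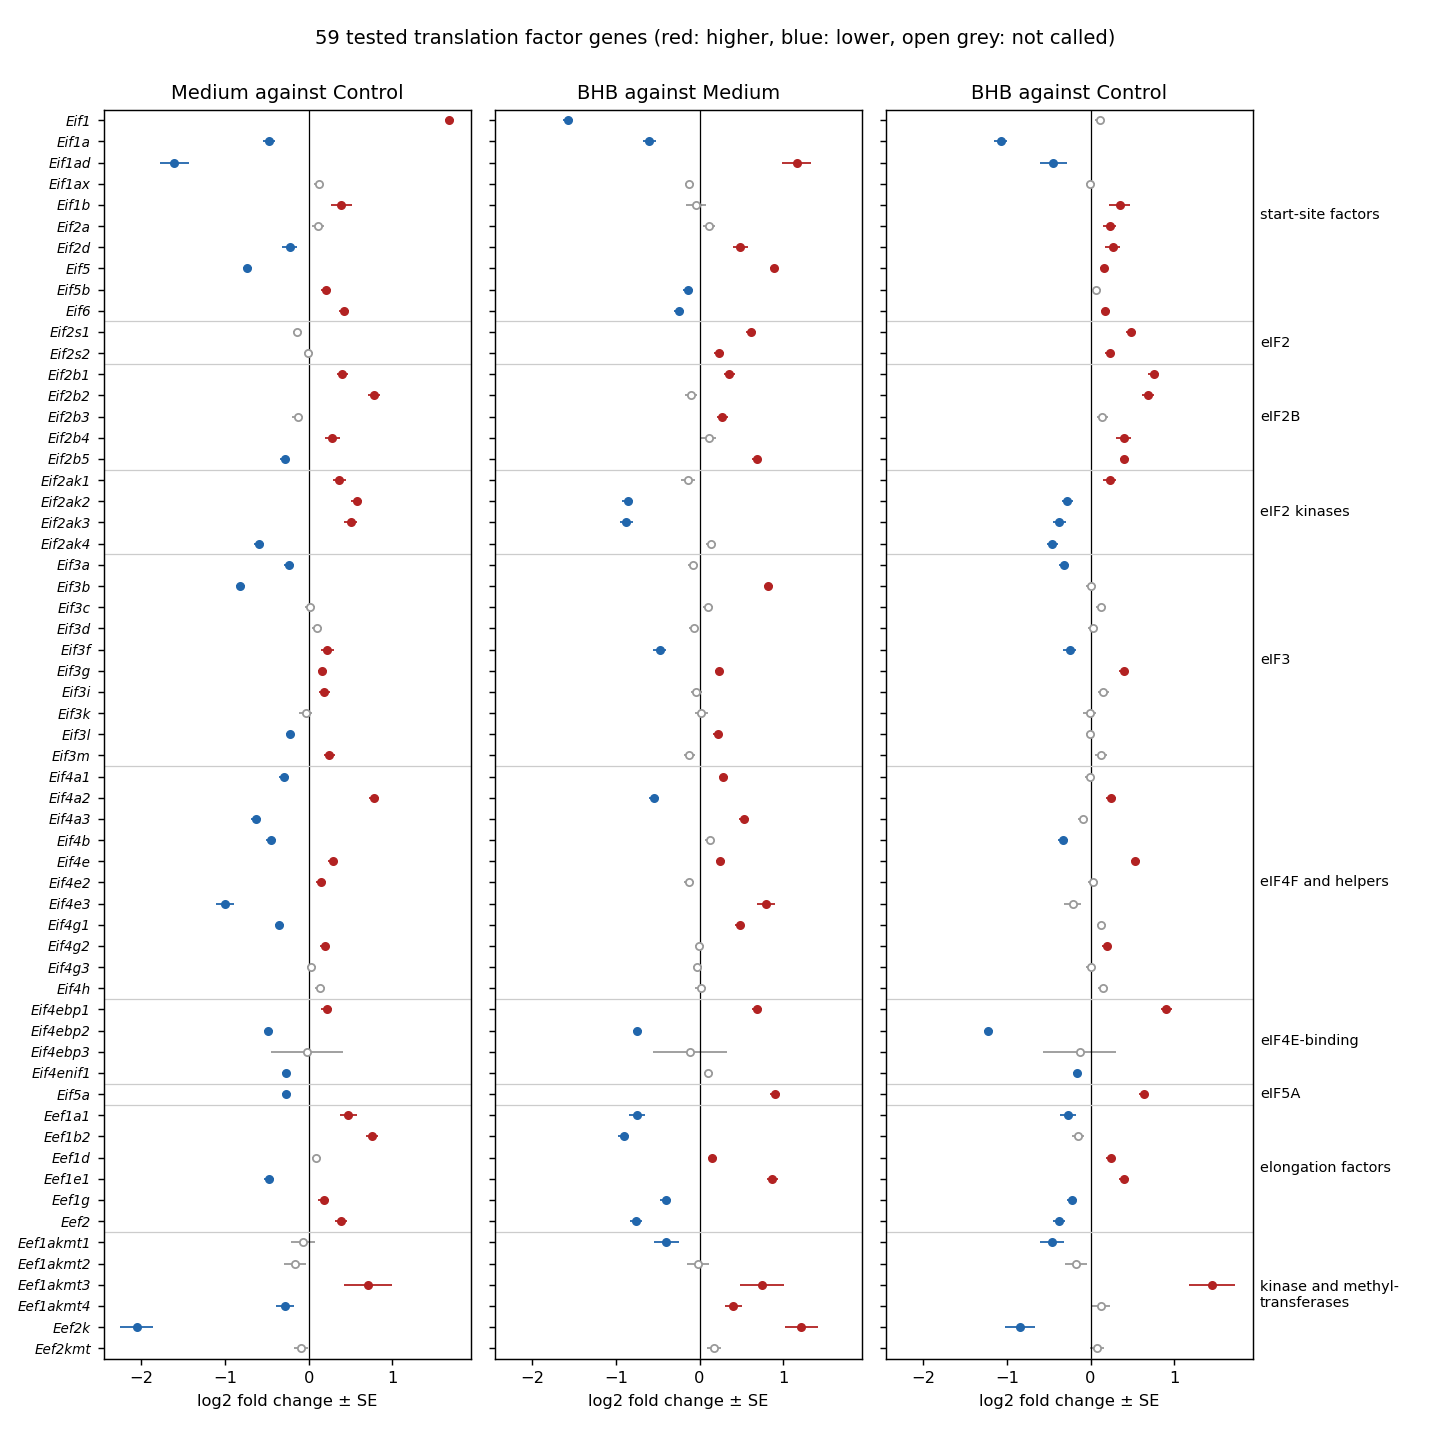
Log2 fold change with its standard error (horizontal axis) of the 59 tested members, grouped by role, in the comparisons of Medium against Control, BHB against Medium and BHB against Control. Red points were called higher, blue points lower and open grey points were not called; the values run from -2.06 (Eef2k) to 1.68 (Eif1) for Medium against Control.

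Among the factors that select the start site, Eif1 had the largest rise with LPS of all members and was back near the Control level with BHB. eIF1 guards the fidelity of start codon choice. Its level was 133, 129 and 128 CPM in Control, 435, 423 and 392 in Medium, against 144, 139 and 136 with BHB. All Medium libraries were far above all others, and the BHB libraries lay just above Control. Eif1 was 3.21-fold higher in Medium relative to Control (log2 fold change 1.68, standard error 0.0561, adjusted p = 3.67e-12) and 2.98-fold lower in BHB relative to Medium (-1.58, standard error 0.0559, adjusted p = 2.48e-11). BHB against Control gave 0.11 (adjusted p = 0.0975; 0.0387 with these groups alone), and -0.031 with library sizes alone. The transcript lies on chromosome 11 (100319885 to 100322096, plus strand, GENCODE M21 on GRCm38), and 13 other annotated genes, 12 of them pseudogenes, hold stretches of at least 200 bases with at least 95% identity, so reads may be shared with them. Its paralogue Eif1b was measured at 10.5 to 16.7 CPM, and the ratio of Eif1 to Eif1b counts was 9.21 to 12.3 in Control, 26.1 to 28.1 in Medium and 8.71 to 9.76 in BHB.

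Eif5, the factor that triggers GTP hydrolysis by eIF2, moved in the other direction. It was measured at 419, 436 and 434 CPM in Control, 265, 258 and 253 in Medium, against 479.7, 489 and 471 with BHB. The groups did not overlap, with Medium lowest and BHB highest. Eif5 fell by 0.73 on the log2 scale with LPS (adjusted p = 1.04e-08), was higher by 0.89 in BHB relative to Medium (adjusted p = 2.42e-09), and higher by 0.16 in BHB than in Control (adjusted p = 0.0122). This last call was lost without Control replicate 1 and with library sizes alone (0.020, adjusted p = 0.70).

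Eif1a and Eif1ad, which carry an eIF1A fold, were both lower in Medium relative to Control. Eif1a had 112, 112 and 113 CPM in Control, 72.8, 78.1 and 91.3 in Medium, against 55.3, 51.2 and 53.4 with BHB. Its level stepped down from Control to Medium to BHB without overlap, with log2 fold changes of -0.48 for Medium against Control, -0.60 for BHB against Medium and -1.07 for BHB against Control (adjusted p = 1.66e-08). Eif1ad had 68.4, 68.6 and 65.2 CPM in Control, 17.8, 16.4 and 32.2 in Medium, against 50.4, 47.2 and 51.2 with BHB. Medium was lowest here, with replicate 3 above the other Medium libraries, and BHB lay between Medium and Control. Eif1ad was 3.05-fold lower in Medium relative to Control (log2 fold change -1.61, adjusted p = 1.04e-06; -1.98 without Medium replicate 3) and 2.24-fold higher in BHB relative to Medium (1.16, adjusted p = 3.65e-05; 1.53 without that library). The difference between BHB and Control, -0.44 (adjusted p = 0.0274), was lost in DESeq2 (adjusted p = 0.111) and on leaving out any 1 of the 6 libraries (adjusted p from 0.0519 to 0.0914). Of the Eif1ad exons, 15.3% overlap the opposite-strand gene Banf1.

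Eif6, which keeps the large ribosomal subunit from joining too early, had 95.5, 92.7 and 93.3 CPM in Control, 124, 132 and 122 in Medium, against 112, 105 and 101 with BHB. The groups did not overlap, and BHB lay between the others. Its log2 fold changes were 0.42 (adjusted p = 9.64e-06), -0.24 (adjusted p = 0.00146) and 0.18 (adjusted p = 0.0128). With library sizes alone the later pair became -0.12 (adjusted p = 0.0976) and 0.038 (adjusted p = 0.59), no longer called, and BHB against Control was also lost without BHB replicate 1 (adjusted p = 0.0584). The group of 10 tested members counted here holds Eif6 and Eif1ad beside factors of the start site and the ternary complex. Of the 10, 4 were higher and 4 lower in Medium relative to Control, 3 and 4 in BHB relative to Medium, and 5 and 2 in BHB than in Control. Eif2d, an alternative carrier of initiator tRNA, was at 37.2 to 48.4 CPM in Medium and 56.6 to 66.7 in BHB (log2 fold change 0.49, adjusted p = 0.000244). Eif1ax, the X-linked eIF1A gene, was called in no comparison, with 117 to 142 CPM over all libraries. With library sizes alone it was below Control in Medium (-0.15, adjusted p = 0.0239) and in BHB (-0.14, adjusted p = 0.0334).

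The 4 kinases of eIF2 did not share a pattern. Eif2ak2 encodes PKR, which senses double-stranded RNA, and Eif2ak3 encodes PERK, which senses stress in the endoplasmic reticulum. Eif2ak2 had 71.6, 76.3 and 73.7 CPM in Control, 107, 103 and 120.3 in Medium, against 61.6, 58.7 and 62.2 with BHB. Eif2ak3 had 27.9, 27.8 and 29.3 CPM in Control, 40.9, 41.8 and 37.9 in Medium, against 22.7, 23.1 and 19.8 with BHB. For both, every Medium library was above every Control library and every BHB library was below Control. Eif2ak2 was 1.49-fold higher in Medium relative to Control (log2 fold change 0.58, standard error 0.0649, adjusted p = 1.61e-06), 1.81-fold lower in BHB relative to Medium (-0.86, adjusted p = 4.58e-08) and lower in BHB than in Control (-0.28, adjusted p = 0.00162). Eif2ak3 was 1.42-fold higher with LPS (0.50, standard error 0.0789, adjusted p = 4.43e-05), 1.84-fold lower in BHB relative to Medium (-0.88, adjusted p = 2.78e-07) and lower than in Control (-0.37, adjusted p = 0.000877).

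Eif2ak1 encodes HRI, the heme-regulated kinase, and Eif2ak4 encodes GCN2, which senses uncharged tRNA. Eif2ak1 had 42.5, 40.0 and 45.3 CPM in Control, 51.8, 53.4 and 59.8 in Medium, against 54.5, 48.2 and 47.0 with BHB, where Medium and BHB overlapped. It was higher in Medium relative to Control (log2 fold change 0.37, adjusted p = 0.000779; 0.10 and adjusted p = 0.354 with library sizes alone). BHB against Medium gave -0.14 (adjusted p = 0.135; -0.21 and adjusted p = 0.0434 without BHB replicate 1). BHB against Control gave 0.23 (adjusted p = 0.0201), which was lost without Control replicate 1, Control replicate 2 or BHB replicate 1 (adjusted p of 0.0513, 0.0883 and 0.101) and with library sizes alone (0.09, adjusted p = 0.437). Eif2ak4 had 110.2, 113 and 108 CPM in Control, 76.7, 70.1 and 73.1 in Medium, against 84.3, 74.9 and 82.6 with BHB. Both LPS groups were below Control and overlapped each other. Eif2ak4 was 1.51-fold lower in Medium relative to Control (-0.59, adjusted p = 6.46e-07) and 1.37-fold lower in BHB than in Control (-0.46, adjusted p = 1.2e-05), while BHB against Medium gave 0.14 (adjusted p = 0.0628), which passed without Medium replicate 1 or BHB replicate 2 (adjusted p of 0.0463 and 0.0218), with at least 10 counts in every library (adjusted p = 0.0491) and, at 0.26, with library sizes alone (adjusted p = 0.00302). The ratio of Eif2ak2 to Eif2ak1 counts, which does not depend on scaling, was 1.63 to 1.91 in Control, 1.93 to 2.07 in Medium and 1.13 to 1.32 in BHB.

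The target of these kinases, the α subunit of eIF2, is encoded by Eif2s1. It had 209.5, 225 and 220.1 CPM in Control, 208, 196 and 193 in Medium, against 288, 311 and 318 with BHB. The BHB libraries stood above all others, 1.54-fold over Medium (log2 change 0.62, standard error 0.0575, adjusted p = 3.36e-07) and 1.40-fold over Control (0.49, adjusted p = 3.58e-06). Medium against Control gave -0.13 (adjusted p = 0.0501), with the Medium values just below Control, a difference that DESeq2, limma-voom, RLE factors, a minimum of 10 counts in every library and a fit of these groups alone called (adjusted p from 0.031 to 0.0478), as did the fit without Medium replicate 1 (adjusted p = 0.0361). With library sizes alone it was -0.40 (adjusted p = 8.61e-06). Eif2s2, the β subunit, was higher in BHB by 0.23 against Medium (adjusted p = 0.00218) and by 0.23 against Control (adjusted p = 0.00247; 0.088 and adjusted p = 0.0955 with library sizes alone). Medium against Control gave -0.0043 (adjusted p = 0.949; -0.27 and adjusted p = 9.15e-05 with library sizes alone).

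Of the 5 subunits of eIF2B, 3 were higher and 1 lower in Medium relative to Control, 3 were higher in BHB relative to Medium, and 4 were higher in BHB than in Control, where none was lower. Eif2b1 had 27.6, 30.2 and 29.3 CPM in Control, 37.7, 37.9 and 39.5 in Medium, against 50.4, 49.6 and 47.3 with BHB, rising from group to group without overlap, by 0.40 and then 0.36 on the log2 scale (adjusted p = 6.9e-05 and 0.000217), and by 0.76 from Control to BHB (adjusted p = 1.52e-07). With library sizes alone the first step was 0.14 and not called (adjusted p = 0.124). Eif2b2 had 89.4, 80.9 and 95.2 CPM in Control, 162, 152 and 144 in Medium, against 141, 153 and 134 with BHB. It was 1.73-fold higher in Medium relative to Control (0.79, adjusted p = 1.86e-07), and Medium and BHB overlapped (-0.10, adjusted p = 0.225; 0.030 with library sizes alone). BHB was above Control by 0.69 (adjusted p = 1.12e-06).

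Eif2b5, the catalytic subunit, had 89.7, 92.4 and 89.0 CPM in Control, 74.5, 71.3 and 77.0 in Medium, against 116, 121 and 122 with BHB. It was lowest in Medium (-0.28 against Control, adjusted p = 0.000271) and highest in BHB (0.68 against Medium, adjusted p = 6.25e-08, and 0.40 against Control, adjusted p = 1.18e-05). Eif2b3, its catalytic partner, had 43.7, 45.2 and 45.6 CPM in Control, 41.9, 42.1 and 38.9 in Medium, against 48.2, 53.3 and 46.9 with BHB, with the same order of groups and smaller steps. Only BHB against Medium was called (0.27, adjusted p = 0.00269), beside -0.13 for Medium against Control (adjusted p = 0.0973; -0.40 and adjusted p = 0.000124 with library sizes alone) and 0.14 for BHB against Control (adjusted p = 0.0794; 0.0484 without BHB replicate 3 and 0.0492 with these groups alone). Eif2b4 had 21.9, 20.9 and 22.1 CPM in Control, 24.1, 29.6 and 25.4 in Medium, against 29.4, 27.9 and 28.0 with BHB. Medium and BHB overlapped and both were above Control (BHB against Medium was called, at 0.24, only with library sizes alone, adjusted p = 0.0335), by 0.29 (adjusted p = 0.00886; 0.0568 without Medium replicate 2, and 0.873 with library sizes alone) and 0.39 (adjusted p = 0.00104).

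**Figure D2:**
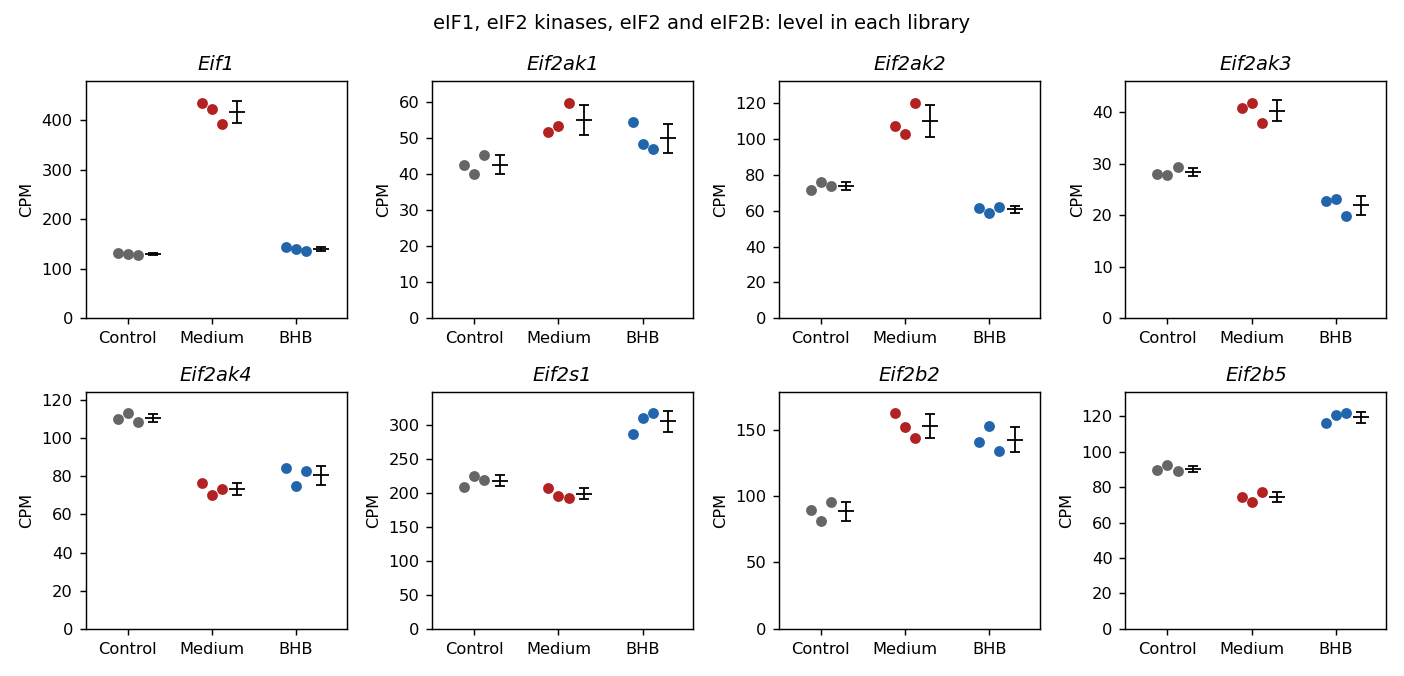
Level in CPM (vertical axis, from 0) of Eif1, the 4 eIF2 kinase genes, Eif2s1, Eif2b2 and Eif2b5 in the 9 libraries (points), with the mean and SD of each group in black. Eif1, Eif2ak2 and Eif2ak3 are highest in Medium, where Eif1 reaches 392 to 435 CPM, while Eif2s1 and Eif2b5 are highest in BHB.

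Among the subunits of eIF3, the scaffold between the small subunit and eIF4F, Eif3b changed most in Medium against Control and in BHB against Medium. Of the 10 tested subunits 4 were higher and 3 lower in Medium relative to Control, but all 4 higher ones, Eif3f, Eif3g, Eif3i and Eif3m, changed sign with library sizes alone. In BHB 3 were higher and 1 lower than in Medium, and 1 higher and 2 lower than in Control. Eif3b had 395, 398 and 412 CPM in Control, 235, 214 and 236 in Medium, against 403, 413 and 394 with BHB. Its Medium libraries were all far below the rest, and Control and BHB overlapped, with log2 fold changes of -0.82 (adjusted p = 7.41e-09), 0.82 (adjusted p = 1.29e-08) and 0.01 (adjusted p = 0.926). Eif3l followed the same order at smaller size (-0.23 and 0.22, adjusted p of 0.000998 and 0.0016). Eif3f had 272, 271 and 268 CPM in Control, 342, 335 and 272 in Medium, against 234, 229 and 219 with BHB, so that Medium replicate 3 lay at the Control level. BHB was below Medium (-0.48, adjusted p = 5.73e-05) and below Control (-0.25, adjusted p = 0.00832). Eif3g was higher in BHB than in Control (0.40, adjusted p = 8.17e-06), and Eif3a was lower (-0.31, adjusted p = 0.000335). Eif3c, Eif3d and Eif3k were called in no comparison, and 43.3% of the Eif3d exons overlap an antisense gene. With library sizes alone all were lower in Medium than in Control (-0.25, -0.17 and -0.31, adjusted p of 0.000145, 0.00238 and 0.000433). Under that scaling BHB was also called above Medium for Eif3c (0.23) and Eif3k (0.16), and below Control for Eif3d (-0.11) and Eif3k (-0.15).

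In eIF4F, which binds the cap and unwinds the leader, the related helicases Eif4a1 and Eif4a2 moved in opposite directions with LPS. Eif4a1 had 1262, 1325 and 1299.7 CPM in Control, 1068, 1045 and 1057 in Medium, against 1260.0, 1321 and 1275 with BHB, with Medium below the rest and Control and BHB overlapping. Eif4a2 had 367, 404 and 366 CPM in Control, 677, 668 and 611 in Medium, against 461, 444 and 440.1 with BHB, with Medium highest and BHB between the others. The log2 fold changes of Eif4a1 were -0.29 (adjusted p = 0.000232), 0.28 (adjusted p = 0.000404) and -0.012 (adjusted p = 0.867; -0.15 and adjusted p = 0.0117 with library sizes alone), and those of Eif4a2 were 0.78 (adjusted p = 3.73e-08), -0.54 (adjusted p = 2.58e-06) and 0.24 (adjusted p = 0.00299; 0.10 and adjusted p = 0.0770 with library sizes alone). The ratio of Eif4a1 to Eif4a2 counts was 3.28 to 3.55 in Control, 1.56 to 1.73 in Medium and 2.73 to 2.98 in BHB. The groups did not overlap, and each pair of groups gave p = 0.1 in the exact permutation test (two-sided), the smallest that 3 libraries against 3 allow (adjusted p = 0.1125 over 18 tests of 6 pairs of genes). Eif4a3, the related helicase of the exon junction complex, had 97.3 to 98.96 CPM in Control, 60.2 to 67.2 in Medium and 89.7 to 96.9 in BHB (-0.63, adjusted p = 2.62e-07, and 0.54, adjusted p = 2.01e-06).

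Eif4e, the cap-binding protein, rose from Control to Medium to BHB. It had 129.5, 132 and 135 CPM in Control, 168, 162 and 153 in Medium, against 185, 195 and 194 with BHB, without overlap. Its log2 fold changes were 0.29 (adjusted p = 0.000207; 0.02 and adjusted p = 0.740 with library sizes alone), 0.25 (adjusted p = 0.00083) and 0.53 (adjusted p = 6.45e-07). The ratio of Eif4e to its relative Eif4e2, which binds the cap without eIF4G, was 1.37 to 1.47 in Control, 1.56 to 1.61 in Medium and 2.00 to 2.12 in BHB. Eif4e3, a further relative, had 19.1, 19.4 and 18.0 CPM in Control, 8.72, 8.94 and 10.6 in Medium, against 16.1, 15.1 and 17.7 with BHB. It was lowest in Medium, by -1.001 on the log2 scale against Control (adjusted p = 9.88e-07) and with 0.79 for BHB against Medium (adjusted p = 1.57e-05), while BHB against Control gave -0.21 (adjusted p = 0.0837), called without BHB replicate 3 (adjusted p = 0.0485), with these groups alone (0.0415) and, at -0.35, with library sizes alone (0.0172).

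Eif4g1, the scaffold of the complex, had 865, 821 and 879 CPM in Control, 688, 651 and 673 in Medium, against 951, 943 and 913 with BHB. It was lowest in Medium (-0.35 against Control, adjusted p = 5.11e-05) and highest in BHB (0.48 against Medium, adjusted p = 3.24e-06). BHB against Control gave 0.13 (adjusted p = 0.0526) without overlap, a difference that DESeq2, limma-voom, RLE factors, a minimum of 10 counts and a fit of these groups alone called (adjusted p from 0.00983 to 0.0499) and that became -0.010 with library sizes alone. Eif4g3 was called in no comparison, but with library sizes alone it was lower in Medium than in Control (-0.23, adjusted p = 0.00563). The ratio of Eif4g1 to Eif4g3 was 4.74 to 5.13 in Control, 3.59 to 3.997 in Medium and 5.05 to 5.51 in BHB. Eif4b, a cofactor of the helicase, was lower than in Control in Medium (-0.45, adjusted p = 4.48e-06) and in BHB (-0.33, adjusted p = 0.000121). Of the 11 tested genes of eIF4F and its helpers, 4 were higher and 5 lower in Medium relative to Control, 5 and 1 in BHB relative to Medium, and 3 and 1 in BHB than in Control.

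The 4E-binding proteins, the repressors of eIF4E, diverged from each other. Eif4ebp1 had 91.3, 78.7 and 94.6 CPM in Control, 105, 102 and 100.4 in Medium, against 161, 166 and 169 with BHB. Eif4ebp2 had 179, 171 and 175 CPM in Control, 123, 132 and 121 in Medium, against 75.8, 72.2 and 76.7 with BHB. No groups overlapped for either gene, with BHB highest for Eif4ebp1 and lowest for Eif4ebp2. Eif4ebp1 was 1.61-fold higher in BHB relative to Medium (log2 change 0.69, standard error 0.0650, adjusted p = 4.04e-07) and 1.87-fold higher than in Control (0.91, adjusted p = 2.43e-08). Its difference between Medium and Control, 0.22 (adjusted p = 0.00807), became -0.05 with library sizes alone (adjusted p = 0.508). Eif4ebp2 was 1.39-fold lower in Medium relative to Control (-0.48, adjusted p = 1.54e-06), 1.68-fold lower in BHB relative to Medium (-0.74, standard error 0.0547, adjusted p = 3.15e-08) and 2.34-fold lower in BHB than in Control (-1.22, adjusted p = 1.97e-10).

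The ratio of Eif4ebp1 to Eif4ebp2 counts within a library was 0.461 to 0.540 in Control, 0.776 to 0.851 in Medium and 2.12 to 2.30 in BHB. Eif4ebp2 had the more counts of the pair in Control and Medium libraries, and Eif4ebp1 in BHB libraries. The ratio was 1.63-fold higher in Medium relative to Control, 2.697-fold higher in BHB relative to Medium and 4.39-fold higher in BHB than in Control, each with p = 0.1 in the exact permutation test and an adjusted p of 0.1125 over the 18 tests. Leaving out any 1 library kept the log2 difference between BHB and Medium at 1.39 to 1.46. Eif4ebp3 had 8 to 19 counts per library and was called in no comparison, and 67.3% of its exons overlap another annotated gene. Eif4enif1, the eIF4E transporter, was lower than in Control in Medium (-0.27, adjusted p = 0.000294) and in BHB (-0.16, adjusted p = 0.0124, lost without Control replicate 3).

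**Figure D3:**
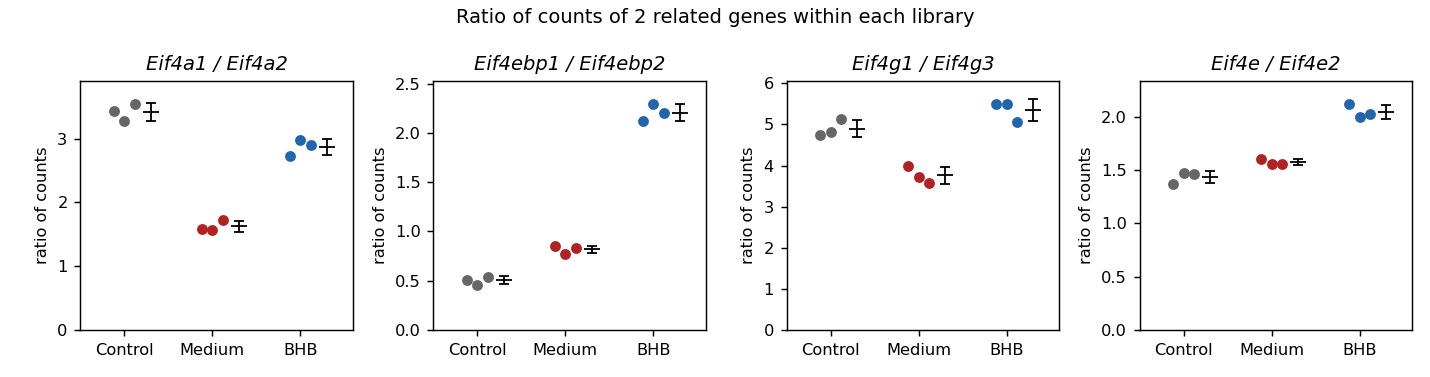
Ratio of the counts of a pair of related genes within each library (vertical axis, from 0, with 0.5 added to both counts), for Eif4a1 to Eif4a2, Eif4ebp1 to Eif4ebp2, Eif4g1 to Eif4g3 and Eif4e to Eif4e2. Points are libraries and black marks are the mean and SD of each group; the 4E-binding protein ratio lies at 2.12 to 2.30 in BHB and below 1 in the other groups.

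Eif5a, the factor that carries the amino acid hypusine and helps the ribosome through stalling sequences, was highest in BHB. It had 635, 625 and 668 CPM in Control, 538, 536 and 529 in Medium, against 967, 1032 and 997 with BHB, without overlap. Eif5a was 1.20-fold lower in Medium relative to Control (log2 fold change -0.27, adjusted p = 0.000503), 1.87-fold higher in BHB relative to Medium (0.90, standard error 0.0553, adjusted p = 4.77e-09) and 1.55-fold higher in BHB than in Control (0.64, adjusted p = 1.56e-07). Dhps, whose enzyme makes the first step of hypusine, was higher than in Control in Medium (0.45, adjusted p = 4.37e-05) and in BHB (0.57, adjusted p = 5.06e-06). Dohh, of the last step, was lower in both (-0.34, adjusted p = 0.00455, and -0.29, adjusted p = 0.0124).

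The main elongation factors were the most abundant members per exon length, at a mean of 9492 CPM per kilobase for Eef1a1 and 1797 for Eef2 in Control, followed by Eef1g (340.3), Eef1b2 (305) and Eif4a1 (299). Transcripts of Eef1a1, Eef1b2, Eef1g and Eef2 were each higher in Medium relative to Control (Eef1g not with library sizes alone) and lower in BHB relative to Medium. Eef1a1 had 23403, 24116 and 23472 CPM in Control, 35941, 35225 and 27606 in Medium, against 18435, 19897 and 20497 with BHB. Eef2 had 5956, 6004 and 5962 CPM in Control, 8232, 8084 and 7125 in Medium, against 4446, 4665 and 4695 with BHB. For both genes no groups overlapped, with Medium highest, BHB lowest and Medium replicate 3 the lowest of the Medium libraries.

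Eef1a1 was 1.39-fold higher in Medium relative to Control (log2 fold change 0.48, standard error 0.1002, adjusted p = 0.000607; 0.59 without Medium replicate 3) and 1.68-fold lower in BHB relative to Medium (-0.75, adjusted p = 1.35e-05). Its difference between BHB and Control, -0.27 (adjusted p = 0.0268), was lost without any 1 of the Control libraries, BHB replicate 1 or BHB replicate 2 (adjusted p from 0.0629 to 0.106). Eef2 was 1.31-fold higher with LPS (0.39, standard error 0.0723, adjusted p = 0.000221), 1.70-fold lower in BHB relative to Medium (-0.76, adjusted p = 4.27e-07) and 1.30-fold lower in BHB than in Control (-0.38, adjusted p = 0.000348). For Eef1a1, 9 pseudogenes hold stretches of at least 200 bases with at least 95% identity, and for Eef1g 4 do.

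Eef1b2, Eef1d and Eef1g belong to the complex that recharges eEF1A with GTP. Eef1b2 had 744, 794 and 782 CPM in Control, 1400.0, 1329.5 and 1186 in Medium, against 648, 716 and 721 with BHB, with Medium well above both other groups. It was 1.69-fold higher in Medium relative to Control (0.76, adjusted p = 2.36e-07) and 1.88-fold lower in BHB relative to Medium (-0.91, adjusted p = 5.78e-08). BHB against Control gave -0.15 (adjusted p = 0.067), called by DESeq2 (adjusted p = 0.0467), with these groups alone (adjusted p = 0.00835) and, at -0.29, with library sizes alone (adjusted p = 0.000168). Eef1g had log2 fold changes of 0.18, -0.40 and -0.22 (adjusted p of 0.0209, 7.7e-05 and 0.00786), the first of which became -0.088 with library sizes alone and was lost without Control replicate 1 or 3 or Medium replicate 1 or 2. Eef1d, by contrast, had 0.15 for BHB against Medium (adjusted p = 0.0245) and 0.24 for BHB against Control (adjusted p = 0.00132). The first was lost without Medium replicate 2, BHB replicate 2 or BHB replicate 3, and the second with library sizes alone (0.10, adjusted p = 0.0881).

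Eef1e1, which despite its symbol encodes a scaffold protein of the aminoacyl-tRNA synthetase complex, had 56.3, 58.04 and 59.3 CPM in Control, 40.8, 42.5 and 41.8 in Medium, against 76.3, 80.4 and 71.8 with BHB. It was lowest in Medium and highest in BHB without overlap (-0.47, 0.87 and 0.40, adjusted p of 8.21e-06, 2.37e-08 and 4.89e-05). Eef1e1 is counted by its symbol among the 6 tested genes listed as elongation factors. Of these, 4 were higher and 1, Eef1e1, lower in Medium relative to Control. In BHB 2 were higher and 4 lower than in Medium, and 2 higher and 3 lower than in Control. The higher genes were Eef1d and Eef1e1 in both comparisons with BHB.

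Eef2k, whose kinase phosphorylates and inhibits eEF2, had the largest fall of all members with LPS. It had 53.1, 58.5 and 54.0 CPM in Control, 9.35, 10.4 and 20.0 in Medium, against 31.7, 28.9 and 31.8 with BHB. The groups did not overlap, but Medium replicate 3 was well above the other Medium libraries. Eef2k was 4.17-fold lower in Medium relative to Control (log2 fold change -2.06, standard error 0.193, adjusted p = 2.45e-07), 2.32-fold higher in BHB relative to Medium (1.22, standard error 0.195, adjusted p = 7.05e-05) and 1.79-fold lower in BHB than in Control (-0.84, adjusted p = 0.000837). Without Medium replicate 3 the first values were -2.49 and 1.64. The gene lies on chromosome 7 (120842831 to 120907450, plus strand).

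Levels of the methyltransferases of the elongation factors ran from 0.776 CPM for Eef1akmt3 to 39.7 CPM for Eef2kmt in single libraries. Eef1akmt3, a lysine methyltransferase of eEF1A, had 20, 35 and 39 counts in Control, 52, 36 and 55 in Medium, against 104, 80 and 79 with BHB, that is 0.776, 1.12 and 1.41, then 1.80, 1.51 and 2.099, then 3.65, 2.597 and 2.86 CPM. BHB was above the other groups, 2.74-fold over Control (log2 fold change 1.46, standard error 0.277, adjusted p = 0.000317). Its differences of 0.71 between Medium and Control (adjusted p = 0.0391) and 0.75 between BHB and Medium (adjusted p = 0.0217) were lost on leaving out single libraries: the first without Control replicate 1 or 2 or Medium replicate 1 or 3 (adjusted p from 0.0700 to 0.143), with library sizes alone or with these groups alone (adjusted p of 0.194 and 0.0592), the second without Medium replicate 2 or BHB replicate 1 (adjusted p of 0.0737 and 0.1001). Eef1akmt4, a further methyltransferase of eEF1A, had 20.1, 21.3 and 18.8 CPM in Control, 15.9, 14.4 and 19.3 in Medium, against 21.4, 22.6 and 21.8 with BHB. Control and Medium overlapped, and BHB was above both. It was lower in Medium than in Control by -0.28 (adjusted p = 0.029; lost without Control replicate 1 or 2 or Medium replicate 1 or 2, and with these groups alone) and higher in BHB relative to Medium by 0.41 (adjusted p = 0.00362). Of the Eef1akmt4 exons, 30.7% overlap Gm49333, a protein-coding gene on the same strand, so reads may be shared with it. Over the 6 tested genes of Eef2k and the methyltransferases, 1 was higher and 2 lower in Medium relative to Control, 3 and 1 in BHB relative to Medium, and 1 and 2 in BHB than in Control. Eef1akmt2 and Eef2kmt were called in no comparison, but with library sizes alone both were lower in Medium than in Control (-0.42 and -0.36, adjusted p of 0.0196 and 0.00418). Under that scaling Eef2kmt was also higher in BHB relative to Medium (0.30, adjusted p = 0.0148).

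**Figure D4:**
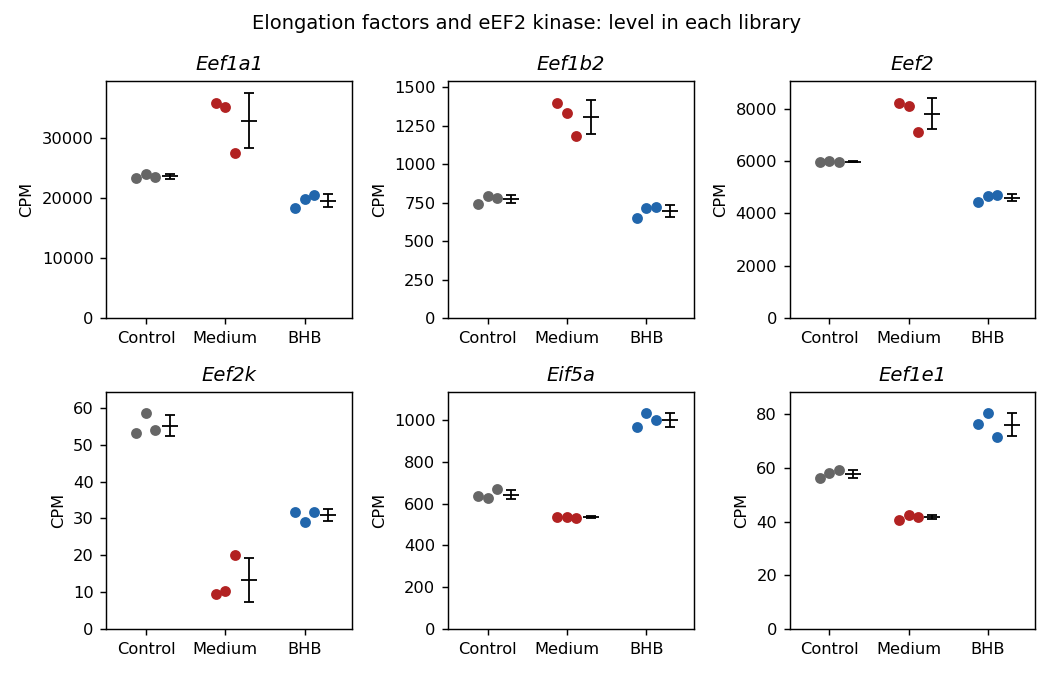
Level in CPM (vertical axis, from 0) of Eef1a1, Eef1b2, Eef2, Eef2k, Eif5a and Eef1e1 in the 9 libraries (points), with the mean and SD of each group in black. Eef1a1, Eef1b2 and Eef2 are highest in Medium, Eef2k is lowest in Medium at 9.35 to 20.0 CPM, and Eif5a and Eef1e1 are highest in BHB.

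The members together took 4.85% to 4.92% of all counts in Control, 4.75% to 5.24% in Medium and 3.82% to 3.99% in BHB. Control and Medium overlapped, and BHB was below both. Eef1a1 alone took 2.58% to 2.63% in Control, 2.67% to 3.17% in Medium and 1.86% to 2.03% in BHB. Without Eef1a1 and Eef2 the members took 1.61% to 1.64% in Control, 1.32% to 1.39% in Medium and 1.502% to 1.52% in BHB, without overlap and with Medium lowest. These shares are of library totals and carry no TMM scaling.

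**Figure D5:**
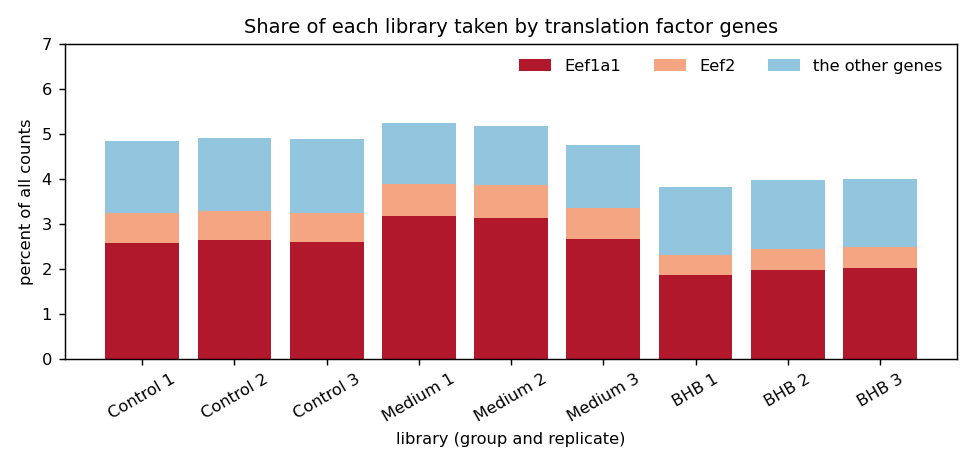
Percent of all counts (vertical axis) taken by Eef1a1, Eef2 and the other 58 members in each of the 9 libraries (horizontal axis). The whole bar reaches 4.75% to 5.24% in Medium and 3.82% to 3.99% in BHB.

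Genes around these factors were counted from lists chosen outside the rule. Of 31 tested translation factors with other names, 10 were higher and 12 lower in Medium relative to Control (5 and 20 with library sizes alone), 11 and 10 in BHB relative to Medium, and 11 and 9 in BHB than in Control (7 and 13 with library sizes alone). The shares called were 71.0%, 67.7% and 64.5%, near the 72.6%, 66.9% and 66.7% of all genes. Denr, a factor of reinitiation and ribosome recycling, had 98.8, 102 and 102 CPM in Control, 263, 258 and 246 in Medium, against 149, 167 and 173 with BHB. It was highest in Medium without overlap (1.34 against Control, adjusted p = 1.03e-10, and -0.65 for BHB against Medium, adjusted p = 3.07e-07). Mknk1, a kinase of eIF4E, fell from group to group (-0.62, adjusted p = 1.56e-07, and -0.31, adjusted p = 0.000209).

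Of 13 tested genes of the integrated stress response, the program downstream of eIF2 phosphorylation, 3 were higher and 7 lower in Medium relative to Control (3 and 9 without Medium replicate 3), 4 and 2 in BHB relative to Medium (6 and 2 without it), and 4 and 7 in BHB than in Control. The shares called with all libraries were 76.9%, 46.2% and 84.6%, beside 72.6%, 66.9% and 66.7% of all genes. Atf4, the central transcription factor of this response, had 387, 364 and 395 CPM in Control, 144, 151 and 323 in Medium, against 338, 347 and 316 with BHB. Medium replicate 3 lay within the BHB range and apart from the other Medium libraries. Atf4 was lower in Medium relative to Control (-0.89, standard error 0.215, adjusted p = 0.00179; -1.37 without that library) and higher in BHB relative to Medium (0.70, adjusted p = 0.0103; 1.18 without it). Trib3, an ATF4 target, likewise had 38.4, 36.4 and 102 CPM in Medium, and was called in none of the comparisons with all libraries, but without that library it was lower in Medium (-1.12 against Control, adjusted p = 8e-11) and higher with BHB (0.78 against Medium, adjusted p = 2.74e-08). Chac1, a glutathione-degrading enzyme and ATF4 target, fell by 3.34 on the log2 scale with LPS (adjusted p = 1.74e-06; -4.36 without that library), from at most 6.24 CPM. Asns and Nupr1 were higher in Medium instead (0.66 and 1.87, adjusted p of 8.8e-08 and 4.89e-11).

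Of 18 tested genes of the mTOR pathway, which controls the 4E-binding proteins and S6 kinase, 5 were higher and 10 lower in Medium relative to Control, 7 and 5 in BHB relative to Medium (10 and 3 with library sizes alone), and 3 and 6 in BHB than in Control. The share called was 83.3% for Medium against Control and 66.7% for BHB against Medium, beside 72.6% and 66.9% of all genes. For BHB against Control 9 of the 18 were called, beside 66.7% of all genes. Mtor itself had 121, 122 and 112 CPM in Control, 85.4, 79.0 and 82.7 in Medium, against 129.8, 126 and 122 with BHB, lowest in Medium without overlap (-0.52, adjusted p = 1.04e-06, and 0.61, adjusted p = 2.89e-07). Rictor, the scaffold of the second mTOR complex, and Tsc1, an inhibitor of the first, were higher in Medium relative to Control (1.17 and 1.01, adjusted p of 3.22e-09 and 2.31e-08) and lower in BHB relative to Medium (-1.04 and -1.05, adjusted p of 2.06e-08 and 2.64e-08). Deptor, an mTOR inhibitor, was lower in Medium relative to Control (-2.08, adjusted p = 4.68e-10), and Ddit4, an inhibitor induced by stress, was higher in BHB relative to Medium (0.88, adjusted p = 2.92e-05). Phosphorylation and protein were not measured in these libraries.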

How the data were processed

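Messenger RNA of 9 BV-2 libraries, grouped by the submitters' labels, was analysed from whole-number counts per gene, which the authors deposited neither normalized nor pooled. The methods name Skewer, FastQC, STAR in strand-specific mode on GRCm38 with GENCODE M21, StringTie and DESeq2, whereas the submitters' processing notes list HISAT2, StringTie, Trimmomatic and FastQC 0.11.5. The counting step, and thus its use of strand and of reads with several matches, was not given in the sources used here. Genes were kept by filterByExpr, normalized by TMM and tested in 1 fit of all libraries (glmQLFit and glmQLFTest, edgeR 4.0.16, R 4.3.3), with Benjamini-Hochberg adjustment over 10413 genes and a threshold of 0.05. Standard errors were derived from the F statistic. The code was tested on simulated data. Ratios of related genes used a pseudocount of 0.5, at least 10 counts per gene and library, and an exact permutation test. Distances used log2 CPM with a prior count of 2.

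Values in every library are given for the 3 highest and 3 lowest called members of each comparison and for factors fixed by role; other members are given by counts and by the 2 with the smallest p per role. Eif5, Eif3b, Eif3f, Eef1e1 and the genes outside the rule were chosen for their values. Members and lists were chosen with earlier results of these data known. Alternatives were DESeq2 1.42.0, limma-voom (limma 3.58.1), RLE factors, library sizes alone, other filters, the compared groups alone, a replicate block, a 2-fold threshold at an unadjusted p, and leaving out each library. The alternatives for the lists outside the rule were chosen after seeing the data. Replicate numbers did not pair libraries (correlation of deviations from -0.071 to 0.063 between libraries with the same number). Promoter sequences are from RefSeq (GRCm38.p6). Members of these families that are not among the 60 symbols were not analysed here.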

Additional observations from a re-analysis of the deposited data

How the results depend on the processing

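With library sizes alone, 9 members were called higher and 32 lower for Medium against Control (2276 and 5375 of all genes), and 11 higher and 23 lower for BHB against Control (2529 and 4414 of all genes). The reversed values of named members were, with that scaling, -0.051 for Eif4ebp1 in Medium against Control, 0.030 for Eif2b2 in BHB against Medium, and -0.031 for Eif1 and -0.010 for Eif4g1 in BHB against Control; Eif4a1 in BHB against Control ran from -0.031 (without BHB replicate 2) to 0.0075 (without Control replicate 2) on leaving out 1 library, with 0.0060 without BHB replicate 1. With an unadjusted p under 0.05 and a change of at least 2-fold, 1 member was higher and 3 lower for Medium against Control (809 and 1147 of all genes), 2 and 1 for BHB against Medium (818 and 526), and 1 and 2 for BHB against Control (706 and 690), since that rule sets a minimum size. Leaving out 1 library at a time gave 19 to 27 members higher and 18 to 20 lower for Medium against Control, 21 to 25 and 12 to 19 for BHB against Medium, and 17 to 21 and 12 to 14 for BHB against Control. In the same order, all genes gave 3564 to 3921 and 3535 to 4002, 3155 to 3689 and 3233 to 3693, and 3177 to 3272 and 3179 to 3254. With the replicate number as a block, 23 and 20, 23 and 14, and 22 and 15 members were called (3733 and 3755, 3429 and 3455, and 3442 and 3422 of all genes). Of the named members the block changed only the call of Eef1akmt3 in Medium against Control (adjusted p = 0.0563). Of the alternative values of named members, 1065 kept direction and side of the threshold, 34 lost the call, 29 gained it and 6 reversed. All 126 values of the ratios of related genes kept their direction and moved by less than the spread between libraries. With 3 libraries a group, genes below about 1 CPM such as Eef1a2 and Eif4ebp3 could not be resolved, and near copies and overlapping genes may share reads with the members named.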
